A study of Capra hircus with 2 samples.

Results

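The reads of miR-103 and miR-107 were examined in the lactating mammary gland of the dairy goat (Capra hircus). The family was taken as all sequenced tags that contain 13 nt shared by both miRNAs. These 13 nt were located by the primer that the study used for miR-107, and they span bases 7 to 19 of the mature form. Of 659118 distinct tags in the pair of libraries, 597 were family tags, 382 at peak and 390 in the late library. They held 324259 of 19044002 clean reads at peak and 121719 of 7385833 in the late library. The animals were healthy Laoshan dairy goats with no treatment described, 4 years old and in the third lactation, sampled by surgery 90 days after kidding for the peak stage and 210 days after it for the late stage. For each stage, RNA from 5 goats was combined into 1 pool and 1 small RNA library was made from it. The methods name 5 goats and 5 tissues per stage, without saying outright whether each goat was sampled at both stages. With 1 library per stage there was no replicate, so no test between the stages was possible. The 95% intervals given below are exact and describe counting error alone. PCR copies are not separate molecules, and pooling hides how the goats varied.

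MicroRNAs are small RNAs cut from hairpin precursors. They guide the silencing complex to messenger RNAs, mainly through the seed, bases 2 to 8 counted from the 5′ end. miR-103 and miR-107 share their seed and differ at 1 base close to the 3′ end. Both lie in introns of pantothenate kinase genes, which encode the enzyme that starts the synthesis of coenzyme A, and both are known for effects on insulin sensitivity and lipid metabolism. The goat gene table of RefSeq (assembly ARS1.2) lists 1 entry for MIR103, inside PANK2, and 1 for MIR107, inside PANK1.

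The most abundant family tag of both libraries is shown with its seed in capitals, and then with the 13 nt that were searched in capitals.
Seed: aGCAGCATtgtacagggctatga
Searched bases: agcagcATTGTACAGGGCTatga

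This 23-nt tag, called the leading tag here, carries at base 22 the base known for miR-103, a G. The miR-107 primer ends at that base with C. Tags that differ there or end before it are shown with base 22 in capitals, because the division into forms rests on this base. A tag without a capital ends at base 21.
miR-103 base, 23 nt: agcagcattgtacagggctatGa
miR-103 base, 22 nt: agcagcattgtacagggctatG
miR-107 base, 23 nt: agcagcattgtacagggctatCa
miR-107 base, 22 nt: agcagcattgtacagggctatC
Base of neither, 23 nt: agcagcattgtacagggctatTa
Base of neither, 23 nt: agcagcattgtacagggctatAa
Base missing, 21 nt: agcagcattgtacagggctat

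As a whole, the family was nearly as abundant in late as in peak lactation. It made up 1.70% of the clean reads at peak (95% interval 1.697% to 1.708%) and 1.65% in late lactation (1.64% to 1.66%). These shares are 17027 and 16480 reads per 1000000 clean reads (RPM), with a log2 ratio of late over peak of -0.047 (-0.057 to -0.038). The direction of this small difference depended on the scaling. When the totals excluded the 10 top tags of either library, the log2 ratio was 0.038. The leading tag was the 12th most abundant tag at peak and the 9th in the late library, at 14029 and 13055 RPM. In pooled tissue, fewer cells that make a miRNA and less of it per cell cannot be told apart. The labelled tissue was not checked here against the chosen miRNA markers of mammary cell types, since no reference sequences of those markers were used.

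Among other tags, those with the nearest levels over the 2 libraries were sought, as groups that share their first 18 nt. The family group, with 16784 RPM in peak and 16113 in late lactation, was closest to the following groups, shown by their leading tag with the seed in capitals.
Nearest: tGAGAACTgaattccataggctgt
Next: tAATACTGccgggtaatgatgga
Next: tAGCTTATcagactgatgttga

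Their distances to the family were 0.60, 0.71 and 0.88 on the log2 scale. The nearest group had 24991 and 18241 RPM, so none of these groups matched the family within counting error. Each of the 3 was lower in late lactation, with log2 ratios of -0.45, -1.06 and -0.54, while that of the whole family was -0.047.

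The forms were divided by base 22. The miR-103 base was carried by 322215 family reads at peak and 118235 in the late library. The miR-107 base was carried by 90 reads at peak and 116 in the late library. Another base stood there in 1315 and 1059 reads, and the base was missing from 639 and 2309 reads, respectively. Nearly every family read that reaches base 22 carried the base of miR-103 in both libraries.

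The share of the miR-103 form was 99.4% of the family at peak (99.3% to 99.4%) and 97.1% in late lactation (97.04% to 97.23%). The share of the miR-107 form was 0.0278% (0.0223% to 0.0341%) and 0.0953% (0.0788% to 0.114%). Tags without base 22, which could come from either miRNA, held 0.197% (0.182% to 0.213%) and 1.90% (1.82% to 1.98%). The other bases held 0.406% (0.384% to 0.428%) and 0.870% (0.819% to 0.924%). The intervals of the libraries did not overlap for any of the 4 classes. These classes add up to the whole family, so they are not 4 separate results. How often shares within other abundant tags differ beyond counting error was not counted, so the lack of overlap is not read as particular to the family. Tags that lack the last 2 nt of their leading tag were compared for 54 other abundant tags. Relative to the leading tag they were past 2-fold higher in late lactation for 20 and past 2-fold lower for 10. From the peak to the late library, the share of the miR-103 form decreased by 2.23 percentage points, while that of tags ending before base 22 was 1.70 points larger.

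**Figure D1:**
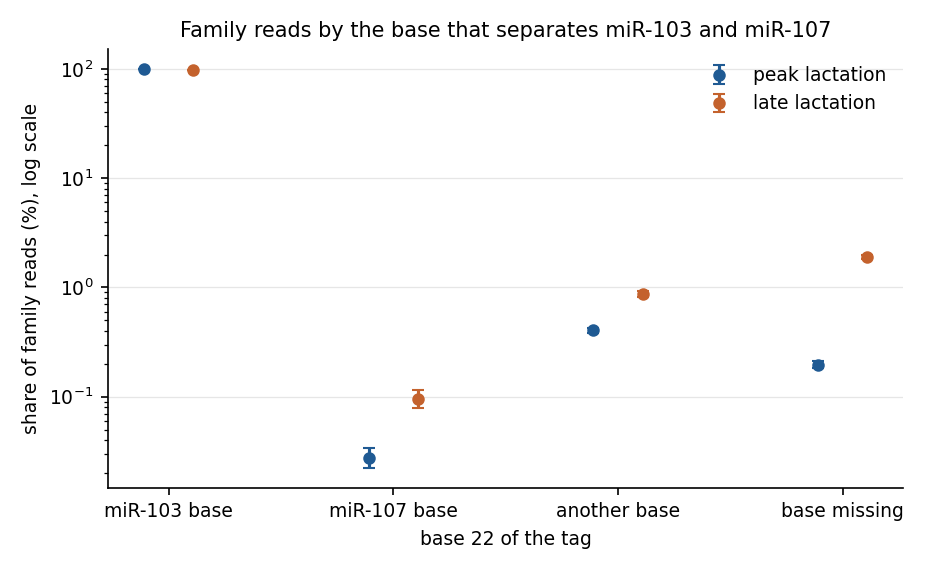
Share of family reads (percent, log scale) by the state of base 22, at peak (blue) and late lactation (orange), 1 pooled library each. Bars are 95% exact binomial intervals. The miR-103 base stands at 99.4% and 97.1%, the miR-107 base at 0.0278% and 0.0953%, and the share without the base is 9.63 times as large in late as in peak lactation.

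In levels, the miR-103 form had 16919 RPM at peak and 16008 RPM in the late library, giving a log2 ratio of -0.08 (-0.09 to -0.07). The miR-107 form had 4.73 and 15.7 RPM, or a log2 ratio of 1.73 (1.32 to 2.15). This ratio is past 2-fold, in libraries where 30.7% of the 26175 tags that reached 1 RPM in either library were past 2-fold higher in late lactation and 40.1% were past 2-fold lower. When the totals excluded the 10 top tags, 45427 tags reached 1 RPM, 18908 of them past 2-fold higher and 14932 past 2-fold lower. The reads with a base of neither miRNA had a log2 ratio of 1.05 (0.94 to 1.17), 0.70 for A and 1.71 (1.51 to 1.92) for T. The miR-107 base and T, which belongs to neither miRNA, thus had ratios whose intervals overlapped.

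Reads with the miR-107 base came from 17 tags, mostly with few reads each. The 23-nt tag agcagcattgtacagggctatCa had 26 reads at peak and 54 in the late library. The 22-nt tag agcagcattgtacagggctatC had 42 and 31 reads. The tag agcagcattgtacagggctatCt had 10 reads in each library. Of the 17 tags, 3 were longer than 30 nt, beyond the fraction cut from the gel, with 3 reads in all. In 2 of these 3, the sequence also held the first 16 nt of another abundant tag.

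The miR-107 base was then set beside the other bases at the same place. Tags in which base 23 of the leading tag followed were taken apart from those that end at base 22, 273967 reads at peak and 101324 in the late library. Tags of 21 nt with 2 added bases can be among them, and their part was not tested. The miR-107 base held 30 of these reads at peak (0.0110%, 0.0074% to 0.0156%) and 73 in the late library (0.0720%, 0.0565% to 0.0906%). T held 33 reads (0.0120%, 0.0083% to 0.0169%) and 72 reads (0.0711%, 0.0556% to 0.0895%). A held 149 and 147 reads, or 0.0544% and 0.145%. Over all these tags, the share of the miR-107 base could therefore not be separated from that of T in either library. It was lower than that of A in both. In the 23-nt tags that match the leading tag elsewhere, described below, the miR-107 base was more frequent than T at peak, with 26 against 8 reads. In late lactation, the shares of all 3 bases were above those in peak lactation, 6.58-fold for the miR-107 base, 5.90-fold for T and 2.67-fold for A.

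In tags that end at base 22, the miR-107 base held 42 of 31447 reads at peak (0.134%) and 31 of 11088 in the late library (0.280%). A held 0.652% and 1.93%, and T held 0.785% and 2.80%. The miR-107 base was the rarest of the 3 in both libraries.

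**Figure D2:**
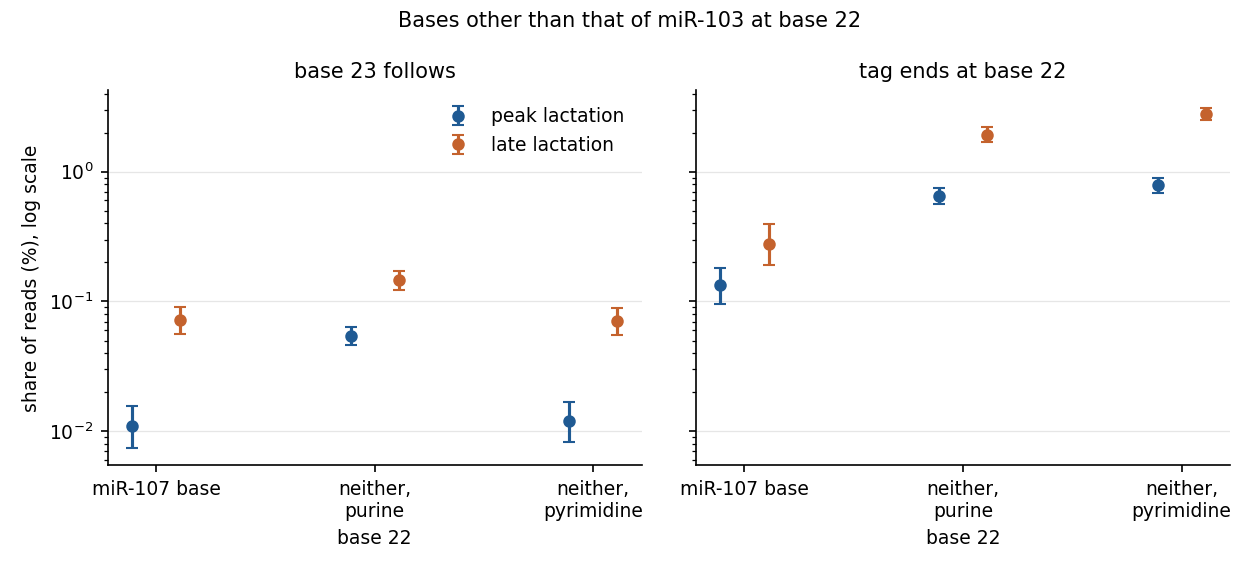
Share of reads (percent, log scale) with a base other than that of miR-103 at base 22, where base 23 of the leading tag follows (left) and where the tag ends at base 22 (right). Blue is peak lactation, orange is late lactation, bars are 95% exact binomial intervals, the purine is A and the pyrimidine is T. On the left, the miR-107 base and the pyrimidine of neither miRNA overlap in each library, and on the right the miR-107 base is the lowest.

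A further comparison was made with changed bases elsewhere in the leading tag. Every tag of 23 nt that differs from it at 1 base was counted, 69 possible changes at 23 bases, and rates were given per 10000 reads of the leading tag and its changed forms. The change G22C, written with the base of the leading tag, the position from the 5′ end and the base of the tag, had a rate of 0.897 in peak lactation (0.586 to 1.31). The other 6 G-to-C changes had rates of 0.690 to 1.31, so G22C lay among them. In late lactation G22C had a rate of 5.20 (3.91 to 6.78), and the other 6 had rates of 0.578 to 1.25. G22C was then 7.2 times the median of the others.

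The rates of the other changes at base 22 were also higher in late lactation. G22T had 8 reads at peak and 48 in the late library, a rate of 0.276 (0.119 to 0.544) against 4.62 (3.41 to 6.13). At peak its interval lay below that of G22C, and in late lactation the intervals of G22T and G22C overlapped. G22A had 119 and 132 reads, a rate of 4.11 (3.40 to 4.91) against 12.7 (10.6 to 15.1). Summed over the 3 changes, base 22 had 5.28 changed reads per 10000 at peak and 22.5 in late lactation. At base 21, next to it, the sums were 4.04 and 4.24, and at base 11 they were 5.11 and 11.7. The change T11G, at a base shared by both miRNAs, had rates of 0.380 and 4.91, a log2 ratio of 3.69 (2.74 to 4.78) beside 2.54 (1.83 to 3.27) for G22C. A higher rate in late lactation was thus also seen at base 11. Base 11 and T11G are examples picked from the 23 bases and 69 changes. Base 3 went the other way, with sums of 13.3 at peak and 5.10 in late lactation. Among the 63 changes at bases 1 to 21, 24 had a lower rate than G22C at peak and 61 in late lactation. All 3 bases at base 22 thus had higher rates in late lactation, and of these C alone is that of miR-107. Whether any of these reads came from miR-107 was not tested.

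Among abundant tags of the libraries, 37 others had values for such changes at their last base but one. For 8 of these 37 the rate was past 2-fold higher in late lactation, for 3 it was past 2-fold lower, and their median log2 ratio was 0.27. The family had a log2 ratio of 2.08 (1.78 to 2.39), and the highest of the others were 1.88 (0.78 to 3.08) and 1.87 (1.76 to 1.98). Both intervals overlapped that of the family, so its rank above them lies within counting error. For changes at the third base from the end, the family had a log2 ratio of 0.06 (-0.48 to 0.57), and 14 of 33 others lay above it. The abundant tags were chosen after the values of the family had been seen.

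**Figure D3:**
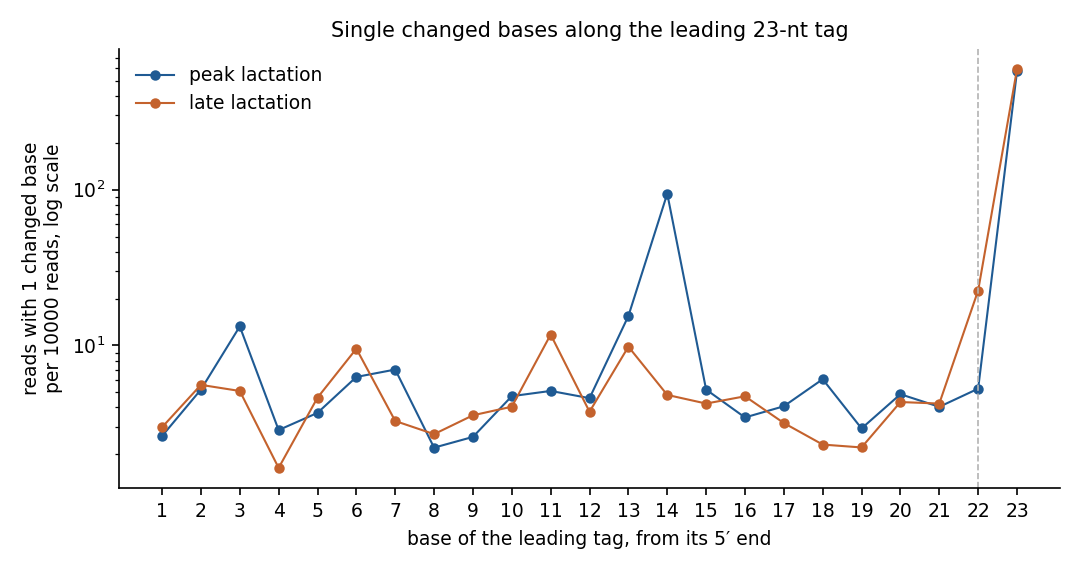
Reads with 1 changed base per 10000 reads (log scale) at each base of the leading 23-nt tag, at peak (blue) and late lactation (orange). The dashed line marks base 22, which separates miR-103 from miR-107, with 5.28 in peak and 22.5 in late lactation. Base 14 has 94.2 at peak and 4.81 in the late library, and base 23 has 575 and 594.

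At base 14, the change A14C had 2627 reads at peak and 8 in the late library, rates of 90.6 (87.2 to 94.2) and 0.770 (0.333 to 1.52). The same change at base 14 was counted in 15 other abundant tags with A there. Their median rate, per 10000 reads of the tag and its changed form, was 62.4 at peak and 0 in the late library, and the highest was 179 at peak. On this scale the family had 97.4 at peak and 0.830 in the late library, and 2 of the 15 lay above it at peak. Base 14 lies inside the 13 nt that were searched, so these reads are not in the family counts. With 1 mismatch allowed in the 13 nt, the log2 ratio of the family was -0.062.

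The seed depends on where a tag starts. Tags that start at base 1 held 98.9% of the family reads at peak (98.86% to 98.94%) and 98.0% in late lactation (97.9% to 98.1%). The remaining tags start earlier or later and expose another seed, shown in capitals for the leading tag of each start.
Start at base 2: gCAGCATTgtacagggctatga
Start at base 3: cAGCATTGtacagggctatga
Start at base 5: gCATTGTAcagggctatga
Start before base 1: aAGCAGCAttgtacagggctatga

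Starts at base 2 and base 3 were a smaller part of the family in late lactation. Start at base 3 had 1513 and 461 reads, 0.467% (0.443% to 0.491%) against 0.379% (0.345% to 0.415%). Base 2 had 698 and 201 reads, 0.215% (0.200% to 0.232%) and 0.165% (0.143% to 0.190%). Start at base 4 had 0.0456% and 0.0550%, a difference within counting error (log2 ratio of the shares 0.27, -0.17 to 0.70). Starts at base 5 and base 6 were a larger part in late lactation. Base 5 had 932 and 920 reads, 0.287% (0.269% to 0.306%) and 0.756% (0.708% to 0.806%). Base 6 had 131 and 237 reads, 0.0404% and 0.195%. The tag cAGCATTGtacagggctatga itself had 72.2 RPM at peak and 51.3 in late lactation, and gCATTGTAcagggctatga had 38.5 and 103.3 RPM.

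Tags that start before base 1 had 139 reads at peak and 511 in the late library, 0.0429% (0.0360% to 0.0506%) and 0.420% (0.384% to 0.458%) of the family. The tag with 1 A before the leading tag had 2 reads at peak and 189 in the late library. Tags with such an A were also found for other abundant tags. Among 19 with values, 16 were past 2-fold higher in late lactation relative to their own leading tag and 1 was past 2-fold lower. The median log2 ratio was 6.36, but many of the 19 had 1 read at peak. The tag at the median had 2 reads at peak and 21 in the late library. In 1 case the tag with the A, at 404144 and 393119 reads, was more abundant than the tag without it. Most of the 55 abundant tags had no value here. Reads removed as contaminants of the 5′ adaptor made up 0.0494% of the high-quality reads at peak and 14.03% in late lactation. Their part in these starts was not tested.

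The 3′ ends also differed between the libraries. Base 23 was the last base of 89.1% of the family reads at peak (89.0% to 89.3%) and 86.7% in late lactation (86.5% to 86.9%). Base 22 was the last of 9.70% (9.60% to 9.80%) and 9.11% (8.95% to 9.27%). Ends at base 21 held 558 and 2012 reads, 0.172% (0.158% to 0.187%) and 1.65% (1.58% to 1.73%). Ends at base 20 held 0.0185% and 0.156%, and ends at base 19 held 0.0065% and 0.0879%. The shares of these ends in late lactation were 9.61, 8.44 and 13.6 times those in peak lactation. Tags that lacked only the last base of the leading tag were thus a slightly smaller share in late lactation, and tags that lacked more were a larger share.

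**Figure D4:**
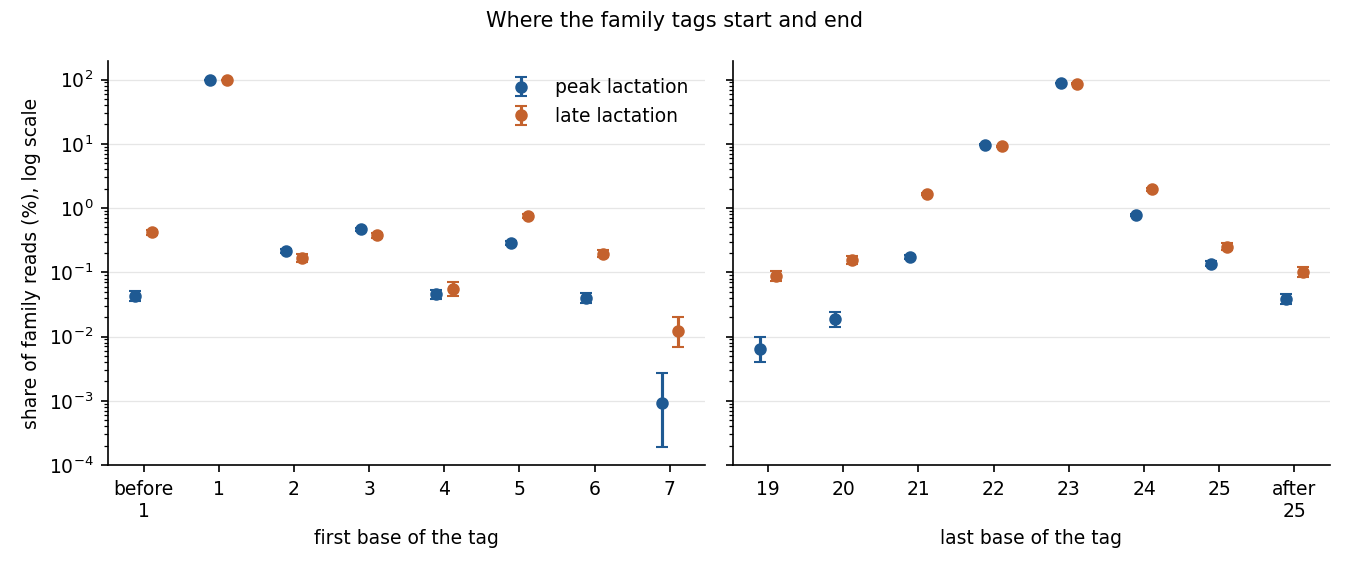
Share of family reads (percent, log scale) by the first base (left) and the last base (right) of the tag, counted on the mature form, at peak (blue) and late lactation (orange). Bars are 95% exact binomial intervals. Starts before base 1 and from base 5 on, and ends at bases 19 to 21 and after base 23, were larger shares in late lactation.

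The 21-nt tag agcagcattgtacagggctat carried most of these reads. It had 526 reads at peak and 1918 in the late library, 27.6 and 260 RPM, or a log2 ratio of 3.23 (3.09 to 3.37). It was the largest ratio among the 6 family tags that reached 100 RPM in either library. The 24-nt tag agcagcattgtacagggctatGaa had 943 and 1188 reads, or a log2 ratio of 1.70 (1.58 to 1.82). The tag gcattgtacagggctatGa had 734 and 763 reads, or a log2 ratio of 1.42 (1.27 to 1.57). These 3 of the 6 tags were past 2-fold higher and none was past 2-fold lower, beside 36.7% and 24.1% of all 738 tags of that level. The 3 tags reached 100 RPM in the late library alone, so they had to be higher there and their count supports nothing. The 3 most abundant tags were within 2-fold. The leading tag had a log2 ratio of -0.10 (-0.11 to -0.09), the tag agcagcattgtacagggctatG of -0.21 (-0.24 to -0.17) and agcagcattgtacagggctatGt of -0.05 (-0.10 to -0.01).

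Of all family tags, 95 had at least 1 RPM in one library. Of these 95, 44 were past 2-fold higher in late lactation (46.3%, beside 30.7% of all tags) and 7 were past 2-fold lower (7.37%, beside 40.1%). Their median log2 ratio was 0.78, and that of all such tags was -0.44. These tags share their source and are not independent of each other, and a tag can enter through the library where it is high. By start, 8 of the 9 tags that begin before base 1 were past 2-fold higher, 30 of the 71 that begin at base 1 and 6 of the 15 that begin after it. By form, 27 of 73 tags with the miR-103 base, 3 of 4 with the miR-107 base, 5 of 8 with A, 4 of 5 with T and all 5 without base 22 were past 2-fold higher. All 7 tags past 2-fold lower began at base 1. The 502 family tags under 1 RPM in both libraries held 640 reads at peak and 551 in the late library.

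Bases added at the 3′ end were also compared. A T in place of the A at base 23, in agcagcattgtacagggctatGt, was the most frequent change of the leading tag, with 16072 reads at peak and 6007 in the late library. This tag was 4.96% of the family at peak and 4.94% in late lactation, a difference within counting error (log2 ratio of the shares -0.01, -0.05 to 0.04). C at the same place had 270 and 22 reads, and G had 327 and 137 reads. Ends at base 24 held 0.785% of the family (0.754% to 0.816%) and 1.94% (1.87% to 2.02%). After the leading tag, the added base was A in 943 and 1188 reads, T in 645 and 632, G in 324 and 105, and C in 34 and 39. Since no goat genome sequence was used here, it is not known whether the A at base 24 is encoded or added.

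The shortened and lengthened tags were set beside those of the other abundant tags, defined as leading tags of groups that reached 1000 RPM in either library. In this set of 55 tags, chosen after the values of the family had been seen, the share of the tag that is 2 nt shorter was past 2-fold higher in late lactation for 21 (38.2%), the family included, and past 2-fold lower for 10 of the 54 others. For the family it was 0.197% of the leading tag at peak and 1.99% in late lactation, or a log2 ratio of 3.34 (3.20 to 3.48). The median of the 54 others was 0.67, from -5.03 to 4.64, and 1 of the 54 lay above the family. That tag had 5 reads of its shorter form at peak and an interval of 3.41 to 6.27. The next below the family had 3.28 (2.54 to 4.01). Both intervals overlapped that of the family, so its rank lies within counting error. For the tag that is 1 nt shorter, the family had a log2 ratio of -0.10 (-0.14 to -0.07), and 37 of 54 others lay above it. For the tag that starts 2 nt later, the family had -0.39 (-0.56 to -0.22), and 31 of 35 others lay above it. With 1 A added, the log2 ratio of the family was 1.80 (1.68 to 1.93), and 9 of 52 others lay above. Of these 52, 17 were past 2-fold higher in late lactation and 2 past 2-fold lower. With 1 T added the family had 1.44 (1.28 to 1.60), and 6 of 48 others lay above. Of these 48, 14 were past 2-fold higher and 4 past 2-fold lower.

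**Figure D5:**
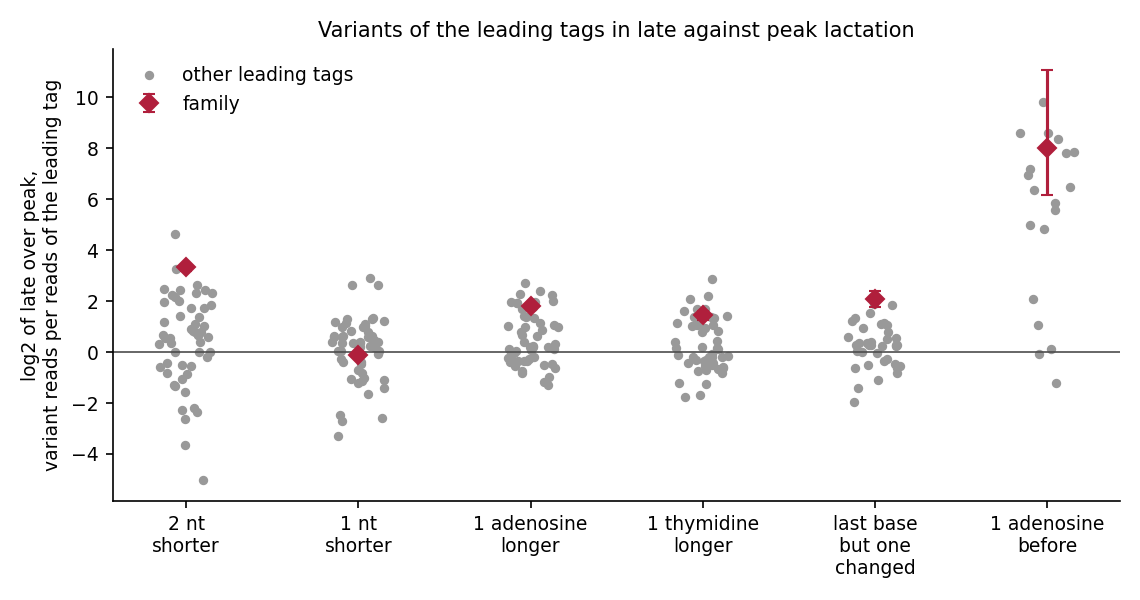
Log2 ratio of late over peak lactation for variants of abundant tags, as reads of the variant per reads of its leading tag. Red diamonds are the family with 95% exact intervals, and grey points are other abundant tags. The family stands near the top for 2 nt shorter (3.34) and for a changed last base but one (2.08), and near 0 for 1 nt shorter (-0.10).

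miR-103 and miR-107 belong to a wider group of miRNAs that share the bases AGCAGC near the 5′ end. In miR-15 and miR-16 these bases start at base 2, so that the seed is shifted by 1 base. Outside the family, 12 tags that reached 100 RPM in either library had AGCAGC at bases 2 to 7. The most abundant of them and the one with the highest ratio are shown with these bases in capitals.
Most abundant: tAGCAGCacgtaaatattggag
Highest ratio: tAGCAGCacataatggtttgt

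Most of these 12 tags are length or end variants of the most abundant one, so the 12 are not separate miRNAs. Of the 12, 9 were past 2-fold higher in late lactation and none was past 2-fold lower. Of all 738 tags of that level, 36.7% were past 2-fold higher and 24.1% past 2-fold lower. All but 1 of the 9 reached 100 RPM in the late library alone, so the limit on level favours higher tags among them and nothing is read from the count. The first had 2617 RPM at peak and 2541 RPM in the late library, giving a log2 ratio of -0.04 (-0.07 to -0.02). The second had 2.84 and 154 RPM, or a log2 ratio of 5.77 (5.37 to 6.19). The leading tag of the family, with 14029 RPM at peak, was more abundant than any of the 12 in either library. At bases 1 to 6, the place they have in miR-103 and miR-107, AGCAGC was found in 1 further tag of that level, the form of the leading tag with A14C.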

How the data were processed

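Small RNA of goat mammary gland was sequenced by the authors on an Illumina 1G Genome Analyzer, from 1 library per stage. Low-quality reads, reads without insert, 5′ adaptor contaminants, poly(A) reads and reads under 18 nt were removed by the authors, the 3′ adaptor was trimmed and identical reads were collapsed. The deposited values are raw read counts per tag, not normalized, mapped or named. For this filtering and trimming, no tool version is given in the labels or methods. The later mapping and annotation steps, for which tools are named, were not used here. Here each count was scaled to RPM with the library's total of clean reads. In peak lactation 98.5% of 19343426 high-quality reads were kept, in late lactation 73.9% of 9998930. A single read stood for 0.0525 and 0.135 RPM.

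Family tags contain the 13 nt that end 3 nt before the 3′ end of the miR-107 primer. Bases were counted from the first base of the most abundant such tag. No reference of mature miRNA sequences was used here, so the base of miR-103 is background knowledge and that of miR-107 is the last base of the primer. For the same reason, passenger strands, related miRNAs by name and tissue markers by name were not analysed here. Tags that share AGCAGC and groups of the first 18 nt stood in for names. The members and lists were chosen with earlier results of these data known. Named tags were the 5 most abundant family tags of each library, the leading tag of each form and of the 3 leading starts, and family tags of at least 100 RPM past 2-fold. Variants of the leading tag and the 55 abundant tags were chosen after their values were seen.

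Shares have Clopper-Pearson intervals and ratios have conditional exact binomial intervals, all at 95%. The limit of 2-fold was applied to tags that reached 1 RPM in the peak or late library, with 0 set to 0.01 RPM. The limit, the division into forms and the intervals were tested on simulated data. The simulated counts varied by counting error alone, left out tags of few reads and had changes larger than 2-fold. The limit was thus not tested for tags near 1 RPM. The forms were tested on tags built from the leading tag. Alternatives were TMM factors of edgeR 4.0.16 and median-ratio factors of DESeq2 1.42.0 (used for scaling alone), other totals, other matches of the family, filters on reads and lengths, a pseudocount, and other readings of base 22. Shares and intervals were computed in Python 3.11.15 with scipy 1.17.1, numpy 2.4.6 and pandas 2.3.3, scaling factors in R 4.3.3, and plots with matplotlib 3.10.9.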

Additional observations from a re-analysis of the deposited data

How the results depend on the processing

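Of 71 values under alternatives, 52 stayed within the 95% interval of the reported value or, for counts of tags, within 1.5 times. The log2 ratio of the family was -0.073 with median-ratio factors, 0.038 without the 10 most abundant tags, -0.062 with 1 mismatch allowed in the 13 nt and -0.059 in tags that start with bases 1 to 19. As a share of the reads that hold base 22, the miR-103 form was 99.57% in peak and 99.02% in late lactation. A further alternative counted a form only where base 23 of the leading tag or the tag end followed, still as a share of all family reads. The miR-103 form was then 94.0% and 91.7%, and the miR-107 form was 0.0222% in peak lactation. Among only the reads where base 23 of the leading tag follows, the miR-103 base held 99.92% and 99.71%. The difference between the libraries kept its direction under all 7 alternatives for the miR-103 form and the miR-107 form, and under all 5 for tags without base 22. In late lactation the share was 3.42 to 3.85 times as large for the miR-107 form and 9.59 to 9.75 times for tags without base 22. These alternatives keep most of the same reads. By context, the share of the miR-107 base was 6.58 times as large where base 23 followed and 2.09 times where the tag ended at base 22.

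In any tag that holds base 22, the miR-107 base was 0.0278% and 0.0971%. Without a mismatch before the 13 nt, starts at base 1 were 98.94% in peak and 98.5% in late lactation. With matching bases after the 13 nt, ends at base 21 were 1.76% in late lactation. The tags past 2-fold numbered 8045 higher and 10486 lower. When the totals excluded the 10 top tags, 18908 were higher and 14932 lower. With a filter of 10 RPM, 1437 were higher and 1946 lower, and with no filter 220657 and 413060.

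The related miRNAs with their first 20 nt were not run, since no mature sequences were used here. A share of tags without base 22 among reads that hold base 22 has no value by construction. No paired analysis was possible because each stage is 1 library. Reads with the miR-107 base are few, and a count of 0 allows 3 reads, 0.158 RPM in peak and 0.406 RPM in late lactation. The causes of these shifts were not tested, except that other totals rescale every tag alike and that a filter changes which tags are counted.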
